A study of Arabidopsis thaliana with 9 samples.

Results

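The 10 genes described here carry nitrate uptake, long-distance transport and reduction in Arabidopsis: the nitrate reductase genes NIA1 and NIA2, the nitrite reductase gene NIR1, the transporter genes NRT1.1, NRT1.5, NRT1.7, NRT1.8 and NRT2.1, the NRT2 partner gene NRT3.1 and the regulator gene NLP7. They were chosen by name and function from the 33655 rows of the deposited count table. The rule itself used no measured value, but earlier results of these data were known when the list was made. Whole seedlings had been grown for 3 days, and transcripts were counted in 3 libraries of each of 3 genotypes: wild-type Col-0, cop1-4 and spaQ. All 9 libraries share the Col-0 background and 1 light regime: stratification for 3 days at 4 °C, 3 h of white light, 21 h of darkness, a far-red treatment and 2 final days in darkness. COP1 is a ubiquitin ligase that works with SPA proteins to hold back light responses in the dark; the labels call the mutants by these names and list no alleles, cop1-4 being known as a viable, weak allele of COP1 and spaQ as a quadruple mutant of the SPA genes. The series title sets the question as which metabolic and developmental pathways of dark-grown seedlings depend on SPA proteins. The nitrate content of the growth medium is not given in the sources used here.

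Nitrate enters root cells through NRT1.1, a dual-affinity transporter that also senses nitrate, and through the high-affinity transporter NRT2.1, which needs its partner protein NRT3.1. NRT1.5 loads nitrate into the root xylem, NRT1.8 takes it back out, and NRT1.7 loads it into the phloem of old leaves. In the cytosol the nitrate reductases NIA1 and NIA2 turn nitrate into nitrite, which NIR1 reduces to ammonium in the plastid. NLP7 is a NIN-like transcription factor that acts as a master regulator of the nitrate response. Light is a known inducer of nitrate reductase in green tissue, and the bZIP factor HY5, which COP1 and SPA proteins mark for breakdown, binds DNA sites built around the letters ACGT.

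The upstream sequences of 4 genes are printed because they are the nitrate reductase pair and the 2 most abundant transporter genes of Col-0, and the pairs moved in opposite directions. Each sequence is the 250 bases just before the annotated start of the gene in the RefSeq annotation of TAIR10.1, written 5′ to 3′ on the strand of the gene. Capitals mark the letters ACGT, which read the same on both strands. The NIA1 sequence covers chr1:29239485-29239734 on the minus strand and the NIA2 sequence chr1:14158202-14158451 on the plus strand. The NRT1.1 sequence covers chr1:4104973-4105222 on the plus strand and the NRT1.5 sequence chr1:11719989-11720238 on the minus strand.
NIA1: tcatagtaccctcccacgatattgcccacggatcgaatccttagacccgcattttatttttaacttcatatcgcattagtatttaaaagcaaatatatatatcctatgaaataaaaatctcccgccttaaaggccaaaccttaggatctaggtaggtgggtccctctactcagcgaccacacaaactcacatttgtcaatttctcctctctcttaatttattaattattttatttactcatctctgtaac
NIA2: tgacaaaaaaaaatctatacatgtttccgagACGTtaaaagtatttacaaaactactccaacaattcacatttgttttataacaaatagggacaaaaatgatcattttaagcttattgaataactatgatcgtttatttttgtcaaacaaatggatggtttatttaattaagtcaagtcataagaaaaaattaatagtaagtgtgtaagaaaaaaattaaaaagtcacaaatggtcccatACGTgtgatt
NRT1.1: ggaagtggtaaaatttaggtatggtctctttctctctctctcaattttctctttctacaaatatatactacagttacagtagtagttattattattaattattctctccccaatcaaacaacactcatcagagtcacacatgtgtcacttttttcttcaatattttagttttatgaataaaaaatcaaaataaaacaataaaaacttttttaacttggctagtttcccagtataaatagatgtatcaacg
NRT1.5: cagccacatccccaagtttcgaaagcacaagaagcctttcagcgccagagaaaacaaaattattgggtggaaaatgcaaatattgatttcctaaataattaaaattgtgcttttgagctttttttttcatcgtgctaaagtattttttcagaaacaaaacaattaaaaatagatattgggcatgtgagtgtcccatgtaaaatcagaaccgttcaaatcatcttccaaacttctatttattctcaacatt
The NIA2 window held ACGT at positions -219 to -216 and -10 to -7 from the gene start, and the NIA1, NRT1.1 and NRT1.5 windows held none. Over all 10 genes, 3 windows held ACGT (NIA2, NRT1.8 and NLP7), against 44.1% of 27443 windows of the same length before protein-coding genes. The longer G-box letters CACGTG, which contain ACGT, occurred in 0 of the 10 windows and in 6.49% of all windows. These matches describe letters in a window and do not locate a bound site.

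The libraries held 22482588 to 38770474 counted reads. Levels are given as CPM, read counts put on 1 library size through TMM factors, as mean ± SD of n = 3 libraries. Fold changes come from edgeR's quasi-likelihood test over 20779 genes, and a gene is called at a Benjamini-Hochberg adjusted p below 0.05. The labels do not say whether the replicates were separate sowings, and the p-values therefore rest on library-to-library spread that could be technical. In whole seedlings, fewer cells of a type and less RNA per cell cannot be told apart. COP1 transcript did not differ detectably between cop1-4 and Col-0 (log2 fold change 0.01, adjusted p = 0.949). With TMM scaling none of the 4 SPA transcripts was called lower in spaQ than in Col-0, so gene-level counts against Col-0 do not check the mutant labels. With library totals as the scale, SPA2 was called lower in spaQ and COP1 lower in cop1-4, each at -0.31 against Col-0. These transcripts did differ between genotypes with TMM scaling. SPA1 and SPA3 rose 5.55-fold and 4.57-fold in cop1-4 and only 1.25-fold and 1.29-fold in spaQ against Col-0. In spaQ they were 4.45-fold and 3.55-fold lower than in cop1-4. SPA4 and COP1 rose 5.35-fold and 2.52-fold in spaQ against Col-0. Summed CPM of the etiolation markers PORA, HLS1 and PIL1 lay at 849 to 926 in Col-0, 30.8 to 36.5 in cop1-4 and 40.5 to 44.9 in spaQ. PORA made up most of the Col-0 sum, at a mean of 813 CPM. PIL1 fell 4.82-fold in cop1-4 but only 1.71-fold in spaQ, where it made up most of the sum at 31.8 CPM.

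Of the 10 genes, 9 had enough reads to be tested and NRT2.1 did not. In cop1-4 against Col-0, 5 of the 9 rose and 3 fell, while 31.8% of all tested genes were higher, 30.3% lower and 62.1% called in all. In spaQ against Col-0, 5 rose and 3 fell, while 35.5% of all tested genes were higher, 36.1% lower and 71.6% called in all. The gene not called in either comparison was NRT3.1. In each comparison the libraries of 8 of the 9 genes did not overlap between genotypes, which held for 65.7% of tested genes in cop1-4 and 75.4% in spaQ. Changes of at least 2-fold were called for 5 of the 9 genes in cop1-4 (background 24.7%) and for 7 of the 9 in spaQ (background 33.6%). The median absolute log2 fold change of the 9 genes was 1.12 in cop1-4 and 1.75 in spaQ, against 0.47 and 0.62 over all tested genes. Both comparisons use the same Col-0 libraries, so they are not independent of each other.

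**Figure D1:**
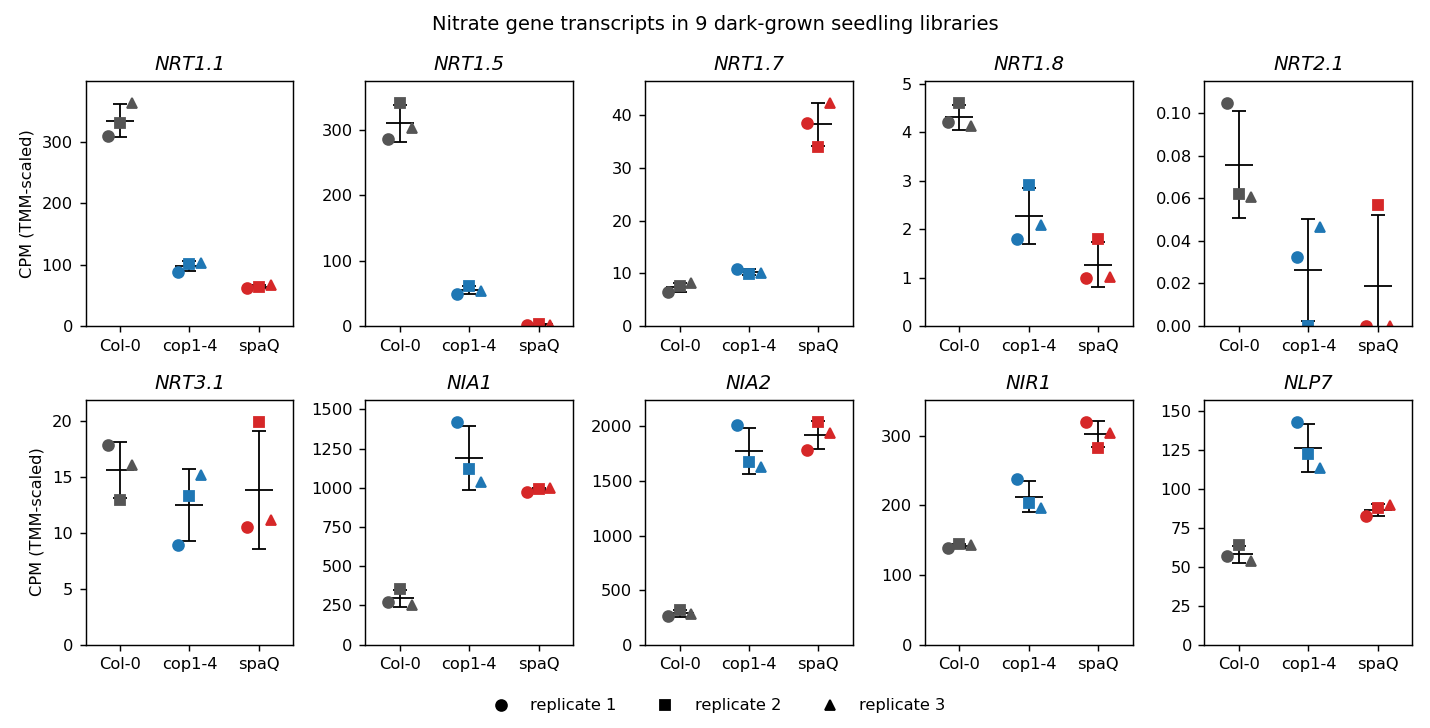
TMM-scaled CPM of the 10 genes (vertical axis, linear, a separate scale for each gene) in the 3 genotypes (horizontal axis); symbols are libraries, and the horizontal line and bar are mean and SD of 3 libraries. NIA1, NIA2, NIR1 and NLP7 lie lowest in Col-0, NRT1.1, NRT1.5 and NRT1.8 lie highest there, and the NRT3.1 libraries of the 3 genotypes overlap.

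Both nitrate reductase genes were several-fold higher in the mutants. NIA2 (AT1G37130, 3 exons, chr1:14158452-14161938, plus strand) read 263.2, 317.5 and 275.4 CPM in the Col-0 libraries, 2013, 1678 and 1625 in cop1-4 and 1782, 2043 and 1939 CPM in spaQ. The lowest mutant library was thus far above the highest wild-type library, and the libraries of the 2 mutants overlapped. NIA2 rose 6.21-fold in cop1-4 (log2 fold change 2.63, SE 0.109, adjusted p = 1.14e-11) and 6.73-fold in spaQ (log2 fold change 2.75, SE 0.11, adjusted p = 3.85e-12). Its transcript per kilobase stood above 99.4% of tested genes in each mutant and above 95.5% in Col-0.

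NIA1 (AT1G77760, 4 exons, chr1:29235721-29239484, minus strand) read 274.3, 355.9 and 252.3 CPM in Col-0, 1421, 1119 and 1035 in cop1-4 and 974.4, 991.9 and 996.9 CPM in spaQ. All 6 mutant libraries were above all 3 wild-type libraries. NIA1 rose 4.05-fold in cop1-4 (log2 fold change 2.02, SE 0.134, adjusted p = 2.84e-09) and 3.36-fold in spaQ (log2 fold change 1.75, SE 0.133, adjusted p = 9.22e-09). The spaQ libraries were nearly identical for this gene, with a coefficient of variation of 1.2%, against 17% in cop1-4 and 18.6% in Col-0.

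The balance between the 2 nitrate reductase genes differed between genotypes. With reads divided by exon length, NIA2 supplied 48.6%, 46.8% and 51.8% of nitrate reductase transcript in the Col-0 libraries, about equal with NIA1. The NIA2 share was 58.2%, 59.6% and 60.7% in cop1-4 and 64.3%, 67% and 65.7% in spaQ. No library of one genotype overlapped with a library of another. The mean share was 49% ± 2.55 in Col-0, 59.5% ± 1.24 in cop1-4 and 65.6% ± 1.34 in spaQ (SD, n = 3 libraries). The differences were 10.5 points for cop1-4 and 16.6 points for spaQ against Col-0, and 6.13 points for spaQ against cop1-4. Each gave p = 0.1 in a 2-sided exact permutation test, the smallest p that 3 libraries against 3 allow. As a share of raw reads without division by length, the widest exact (Clopper-Pearson) 95% interval of one library ran from 51.4% to 52.9% in Col-0 replicate 3; such intervals cover counting error only.

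Nitrite reductase followed with smaller steps. NIR1 (AT2G15620, 4 exons, chr2:6810395-6812941, plus strand) read 138.4, 144.3 and 143.1 CPM in Col-0, 237.3, 203.3 and 195.6 in cop1-4 and 320, 282.5 and 303.8 CPM in spaQ. The 3 genotypes formed separate steps with no overlap between libraries. NIR1 rose 1.49-fold in cop1-4 (log2 fold change 0.58, SE 0.0876, adjusted p = 3.33e-05) and 2.13-fold in spaQ (log2 fold change 1.09, SE 0.0881, adjusted p = 1.98e-08).

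Nitrate reductase transcript therefore stood higher relative to nitrite reductase in the mutants. The ratio of NIA1 plus NIA2 to NIR1, in CPM per kilobase of exon, was 2.68, 3.22 and 2.54 in Col-0, 9.97, 9.48 and 9.36 in cop1-4 and 5.93, 7.39 and 6.65 in spaQ. The cop1-4 ratio was the highest of the 3, the spaQ ratio was intermediate, and no libraries overlapped. Means were 2.81 ± 0.359, 9.6 ± 0.322 and 6.66 ± 0.731 (SD, n = 3 libraries); no test was run on this ratio.

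**Figure D2:**
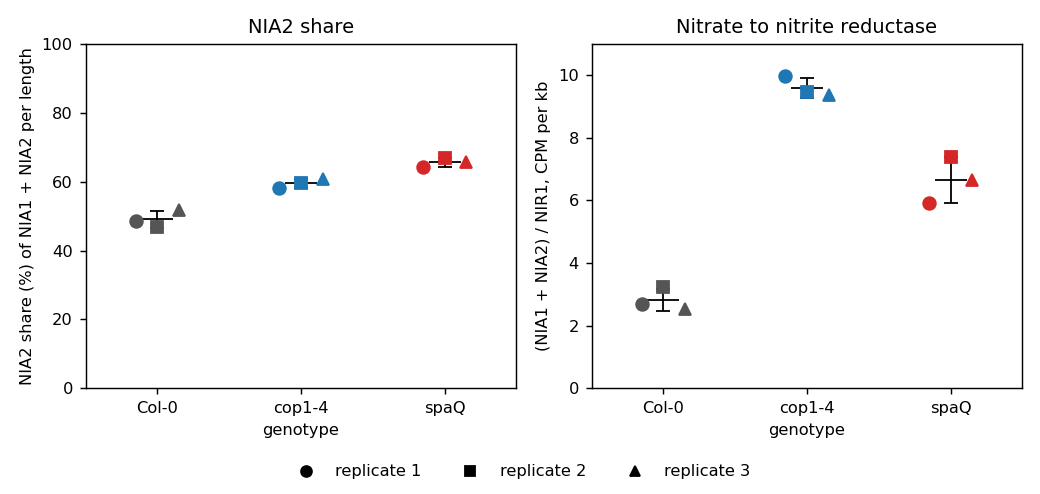
Left: share of NIA2 in nitrate reductase transcript (percent, reads divided by exon length). Right: ratio of NIA1 plus NIA2 to NIR1 in CPM per kilobase; symbols are libraries, lines and bars are mean and SD of 3 libraries for each genotype. The NIA2 share steps from 49% in Col-0 to 59.5% in cop1-4 and 65.6% in spaQ, while the ratio peaks in cop1-4 at 9.6.

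Among the transporters, NRT1.1, NRT1.5 and NRT1.8 were lower in the mutants, NRT1.7 was higher and NRT3.1 was not called. NRT1.5 (AT1G32450, 6 exons, chr1:11715147-11719988, minus strand) read 286.2, 341.1 and 304 CPM in Col-0, 48.98, 61.49 and 54.33 in cop1-4 and 1.533, 3.823 and 2.227 CPM in spaQ. In reads, this was 10022 to 10972 per Col-0 library, 1169 to 1586 per cop1-4 library and 42 to 134 per spaQ library. The spaQ libraries lay far below the cop1-4 libraries, which lay far below the wild type. NRT1.5 fell 5.65-fold in cop1-4 (log2 fold change -2.50, SE 0.163, adjusted p = 2.27e-09) and 119-fold in spaQ (log2 fold change -6.90, SE 0.214, adjusted p = 2.54e-13). The spaQ change was larger in size than that of 99.4% of tested genes. A stretch of 16 bases of NRT1.5 overlap AT1G32440 on the other strand, and reads of both could be mixed only there.

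NRT1.1 (AT1G12110, 5 exons, chr1:4105223-4109601, plus strand) read 310.7, 330.7 and 363.3 CPM in Col-0, 88.61, 101.6 and 103.4 in cop1-4 and 62.17, 64.02 and 66.53 CPM in spaQ. The genotypes again formed 3 separate steps, with the smallest spread in spaQ. NRT1.1 fell 3.42-fold in cop1-4 (log2 fold change -1.78, SE 0.0885, adjusted p = 9.45e-11) and 5.21-fold in spaQ (log2 fold change -2.38, SE 0.0905, adjusted p = 2.21e-12).

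NRT1.8 (AT4G21680, 4 exons, chr4:11517353-11519805, minus strand) was scarce, with 4.209, 4.601 and 4.125 CPM in Col-0, 1.794, 2.908 and 2.091 in cop1-4 and 0.9857, 1.797 and 1.016 CPM in spaQ. Every mutant library was below every wild-type library. NRT1.8 fell 1.91-fold in cop1-4 (log2 fold change -0.93, SE 0.224, adjusted p = 0.00201) and 3.32-fold in spaQ (log2 fold change -1.73, SE 0.236, adjusted p = 8.22e-06). It shares 44 bases with AT4G21670 on the other strand, and the spaQ values rest on 26 to 63 reads per library.

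Markers of root tissue moved in both directions, while their summed level, which rests on the few most abundant of them, was lower in the mutants. The summed CPM of 12 root markers was 7738 to 8362 in Col-0, 4278 to 4814 in cop1-4 and 4690 to 5404 in spaQ, and without the very abundant PYK10, a root and hypocotyl β-glucosidase, it was 780 to 857, 322 to 383 and 233 to 246. Of the 12, 4 rose and 6 fell in cop1-4 and 5 rose and 6 fell in spaQ, and none was at 0 in any library. Among all tested genes, 31.8% were higher and 30.3% lower in cop1-4, and 35.5% and 36.1% in spaQ. The endodermal gene CASP1 fell 2.89-fold and 6.64-fold in cop1-4 and spaQ, and the root tonoplast aquaporin gene TIP2;3 fell 4.74-fold and 128-fold. CASP1 and TIP2;3 made up most of the Col-0 sum without PYK10, at means of 297 and 349 CPM. Their means were 103 and 73.6 CPM in cop1-4 and 44.8 and 2.7 CPM in spaQ. The quiescent centre gene WOX5, the root hair gene EXPA7, PLT1 and COBL9 rose in both mutants, and SCR rose in spaQ only. COBL9 rose 1.92-fold and 1.32-fold in cop1-4 and spaQ, PLT1 1.88-fold and 1.69-fold, and SCR 1.55-fold in spaQ. For COBL9, PLT1 and SCR the libraries did not overlap with Col-0 in those comparisons. The genes that fell in both mutants also included SHR, MYB36 and PYK10. WOX5 had only 9, 6 and 16 reads in the Col-0 libraries, and the EXPA7 libraries of cop1-4 and Col-0 overlapped. The part of root tissue in the NRT1.1, NRT1.5 and NRT1.8 values was not tested.

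NRT1.7 (AT1G69870, 4 exons, chr1:26315787-26320233, plus strand) moved the other way. It read 6.458, 7.647 and 8.098 CPM in Col-0, 10.89, 9.926 and 10.04 in cop1-4 and 38.59, 34.07 and 42.31 CPM in spaQ. The cop1-4 libraries stood just above the wild type and the spaQ libraries well above both. NRT1.7 rose 1.39-fold in cop1-4 (log2 fold change 0.48, SE 0.114, adjusted p = 0.00183) and 5.18-fold in spaQ (log2 fold change 2.37, SE 0.108, adjusted p = 1.79e-11). The cop1-4 call depends on scaling: with library totals in place of TMM, which moves the median gene to -0.31, the log2 fold change was 0.17 and the adjusted p 0.198.

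Of the high-affinity pair, the transporter gene was almost without reads and its partner gene was readily counted. NRT2.1 (AT1G08090, chr1:2524023-2526322, plus strand) had 4, 2 and 2 reads in the Col-0 libraries, 1, 0 and 1 in cop1-4 and 0, 2 and 0 in spaQ, 12 reads in all of 268445229. No difference was detectable at this depth, and 8.86% of its 50-base exon windows also occur elsewhere in the genome, so reads from those windows may not have been assigned to it. Its relatives NRT2.2 and NRT2.3 had 0 reads, NRT2.4 had 2 and NRT2.5 had 5; a count of 0 over all libraries allows up to 0.0112 CPM, counting error only. NRT3.1 (AT5G50200, WR3 in RefSeq, chr5:20436180-20437815, plus strand) read 17.83, 12.93 and 16.07 CPM in Col-0, 8.903, 13.3 and 15.15 in cop1-4 and 10.48, 19.91 and 11.13 CPM in spaQ. Libraries of all 3 genotypes overlapped. The log2 fold change of NRT3.1 was -0.34 in cop1-4 (95% interval -0.82 to 0.14, adjusted p = 0.201) and -0.16 in spaQ (-0.63 to 0.31, adjusted p = 0.523). Without spaQ replicate 2 the spaQ value was -0.53 with an adjusted p of 0.0203, and with library totals both values were called lower, at -0.65 and -0.54 (adjusted p = 0.0199 and 0.0407).

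NRT1.5, NRT1.8 and NRT3.1 were spread widely in spaQ, with replicate 2 the highest library for each. In that library these genes stood, in this order, at 2.03, 1.8 and 1.84 times the mean of the other spaQ libraries. NRT1.1, NIA1 and NLP7 stood at 0.995, 1.01 and 1.02 times, and NRT1.7, NIR1 and NIA2 at 0.842, 0.906 and 1.1 times. Replicate 1 stood at 0.507, 0.701 and 0.675 times for NRT1.5, NRT1.8 and NRT3.1, each ratio taken against a mean that holds replicate 2. In cop1-4, replicate 1 stood at 0.626 times for NRT3.1 and replicate 2 at 1.5 times for NRT1.8. With a small constant added to each level, 167 of 18885 genes (0.884%) differed by over 2-fold in spaQ replicate 2, 105 of them upward. On that scale NRT1.5 had a log2 ratio of 0.986 and was not among them. The 12 root markers summed to 4690 CPM there, against 5404 and 4743 CPM in the other spaQ libraries, and PYK10 alone held 4457 CPM of it. Without PYK10 the sum was 233 CPM, against 245 and 246 CPM. Single markers there stood between 0.728 and 1.19 times the mean of the other spaQ libraries. Without replicate 2 the spaQ log2 fold change was -7.37 for NRT1.5 and -2.10 for NRT1.8, both still called.

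**Figure D3:**
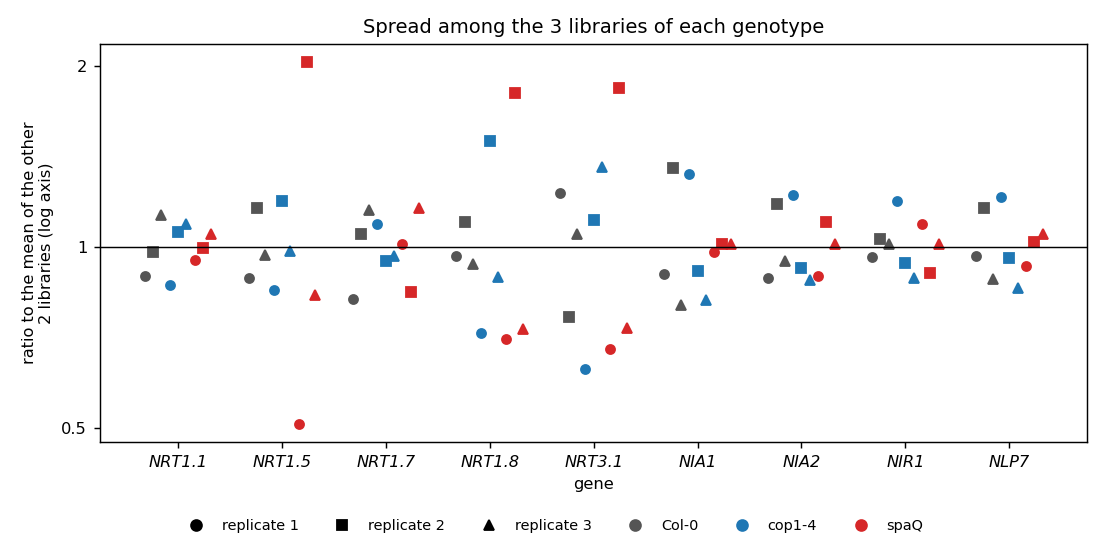
Ratio of each library to the mean of the other 2 libraries of its genotype (vertical axis, log scale) for the 9 tested genes; colours are genotypes and symbols are replicates. The widest points are those of NRT1.5, NRT1.8 and NRT3.1: spaQ replicate 2 at 2.03, 1.8 and 1.84, spaQ replicate 1 at 0.507 for NRT1.5, cop1-4 replicate 1 at 0.626 for NRT3.1 and cop1-4 replicate 2 at 1.5 for NRT1.8.

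The regulator NLP7 (AT4G24020, 5 exons, chr4:12479528-12484049, plus strand) read 56.66, 64.1 and 53.44 CPM in Col-0, 143, 122.5 and 113.3 in cop1-4 and 82.25, 87.45 and 89.51 CPM in spaQ. Here cop1-4, not spaQ, stood highest, and no libraries overlapped. NLP7 rose 2.18-fold in cop1-4 (log2 fold change 1.12, SE 0.0968, adjusted p = 6.57e-08) and 1.49-fold in spaQ (log2 fold change 0.57, SE 0.0963, adjusted p = 7.02e-05). The spaQ call is lost with library totals, where the log2 fold change was 0.20 and the adjusted p 0.0535.

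**Figure D4:**
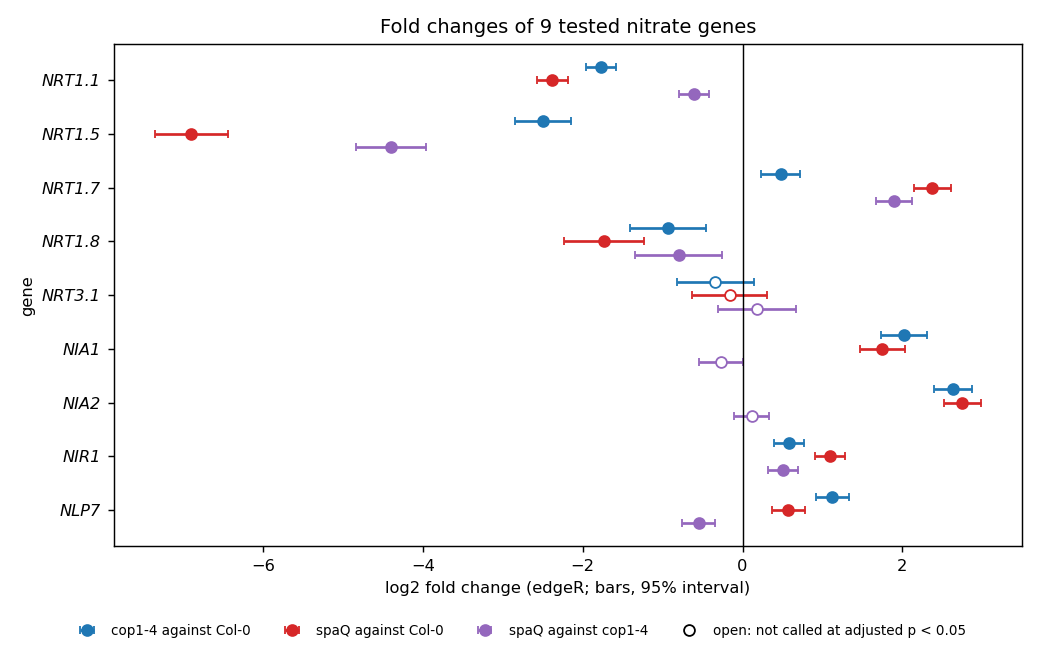
Log2 fold changes of the 9 tested genes (horizontal axis) with 95% intervals for the 3 comparisons; filled points are called and open points are not. NRT1.5 reaches -6.90 in spaQ, NIA1, NIA2, NIR1, NLP7 and NRT1.7 lie to the right of 0 in both mutants, and the 3 intervals of NRT3.1 include 0.

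Compared directly, spaQ and cop1-4 differed in 6 of the 9 tested genes, 2 higher and 4 lower in spaQ, against 24% of all tested genes higher, 23.5% lower and 47.5% called in all. Of the 9, 2 differed by at least 2-fold (background 9.88%), and the libraries of 6 did not overlap (background 57.3%). The largest gap was NRT1.5, 21.1-fold lower in spaQ (log2 fold change -4.40, SE 0.203, adjusted p = 8.24e-10), a larger change than that of 99.8% of tested genes. NRT1.7 was 3.71-fold higher in spaQ (1.89, SE 0.107, adjusted p = 5.19e-09), and NIR1 was 1.42-fold higher (0.51, SE 0.0873, adjusted p = 0.000217). NRT1.1 and NLP7 were lower in spaQ by 1.52-fold and 1.46-fold (adjusted p = 4.74e-05 and 0.000257). NRT1.8 was 1.74-fold lower (adjusted p = 0.0182), but its libraries overlapped. That call was lost without cop1-4 replicate 2 (log2 fold change -0.57, adjusted p = 0.108), spaQ replicate 1 (-0.65, 0.0764) or spaQ replicate 3 (-0.67, 0.0718).

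The nitrate reductase genes did not pass the test between the mutants. NIA2 differed by a log2 of 0.12 (95% interval -0.10 to 0.34, adjusted p = 0.375) and NIA1 by -0.27 (-0.55 to 0.00, adjusted p = 0.0969). The NIA1 value was called without Col-0 replicate 2 (-0.27, adjusted p = 0.046), without cop1-4 replicate 3 (-0.36, adjusted p = 0.0421) and with library totals (-0.33, adjusted p = 0.0374). NRT3.1 differed by 0.18 (-0.31 to 0.66, adjusted p = 0.549), and the sign turned without spaQ replicate 2 (-0.19) or cop1-4 replicate 1 (-0.02).

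Ranked by level per kilobase of exon, the order of the genes turned over between genotypes. In Col-0 the transporters led, NRT1.1 at 152.1 ± 12.1 and NRT1.5 at 140.1 ± 12.6 CPM per kilobase, whose libraries overlapped, followed by NIA1 at 93.2 ± 17.3 and NIA2 at 89.0 ± 8.89, which also overlapped. NIR1 came next at 64.7, then NLP7 at 16.7, NRT3.1 at 11.9, NRT1.7 at 3.06, NRT1.8 at 1.97 and NRT2.1 at 0.0359, each separated from its neighbour. In both mutants the reductases led: NIA2 at 552.9 ± 65.7 and NIA1 at 377.8 ± 64.3 in cop1-4, and NIA2 at 599.5 ± 41.1 and NIA1 at 313.1 ± 3.75 in spaQ, with NIR1 behind them at 96.7 and 137.7 CPM per kilobase.
NRT1.1 then followed at 44.5 in cop1-4, where it overlapped with NLP7 at 36.3, and at 29.2 in spaQ, where it did not overlap with NLP7 at 24.8. NRT1.5 ranked 6 in cop1-4 at 24.8 and 8 in spaQ at 1.14 CPM per kilobase, where its libraries overlapped with those of NRT1.8 at 0.579. NRT1.7 ranked 6 in spaQ at 15.8, overlapping with NRT3.1 at 10.5. The level of NRT1.5 per kilobase stood above 97.7% of tested genes in Col-0, 79.1% in cop1-4 and 17.4% in spaQ.

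The authors' deposited tables of regulated genes, which list genes past a 2-fold change, hold 5 of the 10 genes for cop1-4 and 7 for spaQ. In the authors' deposited table for cop1-4, the log2 fold changes were 1.98 for NIA1, 1.09 for NLP7, -1.80 for NRT1.1 and -2.49 for NRT1.5, and NIA2 is listed as higher. In the authors' deposited table for spaQ, they were 2.74 for NIA2, 1.73 for NIA1, 1.08 for NIR1, 2.36 for NRT1.7, -1.73 for NRT1.8, -2.39 for NRT1.1 and -6.82 for NRT1.5.

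A further 69 genes of nitrate transport, signalling and reductase cofactors were listed, of which 64 could be tested. In cop1-4, 23 rose and 27 fell (78.1% called), in spaQ 19 rose and 28 fell (73.4%), and between the mutants 15 were higher and 23 lower in spaQ (59.4%), shares to be read against 62.1%, 71.6% and 47.5% of all tested genes. Of the 69, 22 overlap another annotated gene, among them NPF2.9, NPF3.1, NRT1.12, CLCa, CLCb, CLCc, NLP4, NLP5, CBL1, CPK10, CPK30, CNX2, CNX7, AT2G43760, UPM1 and G6PD3, and their values are less certain because no source used here says whether counting was by strand. With library totals more genes are called lower, and the median tested gene moved to -0.306 in cop1-4 and -0.39 in spaQ against Col-0. The counts against Col-0 that change under that scaling are given beside each group. Group counts are read against all tested genes: 31.8% were higher and 30.3% lower in cop1-4, and 35.5% and 36.1% in spaQ.

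Most other NRT1 (NPF) transporter genes changed. Of 13 tested, 6 rose and 7 fell in cop1-4 and 3 rose and 8 fell in spaQ. The median log2 fold changes were -0.67 and -0.78. The shares called were 100% and 84.6%, against 62.1% and 71.6% of all tested genes. With library totals 3 rose and 7 fell in cop1-4 and 3 rose and 10 fell in spaQ. The low-affinity nitrate transporter gene NPF6.4 stood at 1.64 ± 0.299 CPM in Col-0 libraries, against 84.4 ± 7.94 in cop1-4 and 165 ± 9.35 in spaQ (SD, n = 3). This was the largest rise of the list, 5.67 ± 0.129 in cop1-4 and 6.64 ± 0.131 in spaQ (log2 fold change ± SE), with adjusted p-values of 4.7e-14 and 5.66e-15. NPF1.2 and NRT1.12, which move nitrate in the phloem of mature leaves toward young ones, fell, with log2 fold changes of -1.78 and -1.26 in cop1-4 and -3.55 and -1.53 in spaQ. NPF2.9, which loads nitrate into root phloem, fell in both mutants, with log2 fold changes of -0.77 in cop1-4 and -2.07 in spaQ. NPF3.1, a nitrite and nitrate transporter, rose in both, by 2.57 in cop1-4 and 3.06 in spaQ.
Direct comparison of the mutants called 11 of the 13, against 47.5% of all tested genes. NPF1.2, NPF2.9 and the gene AT3G45680 were lower in spaQ (-1.76, -1.31 and -3.58) and NPF6.4 was higher (0.97, adjusted p = 9.9e-07). The AT3G45680 value rests on 246 reads in all libraries together, with a mean of 0.1335 CPM in spaQ.

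Of the NRT2 group, 3 of 7 genes could be tested. NRT2.7, which stores nitrate in seed vacuoles, rose by 0.54 in cop1-4 and 0.77 in spaQ (adjusted p = 1.48e-05 and 1.57e-07). NRT2.6 fell 3.25-fold and 2.5-fold (adjusted p = 0.00472 and 0.0123) on 147 reads in all libraries together. The log2 fold change of AT4G24730 was 0.06 and 0.21, not called, and -0.25 and -0.16 with library totals.

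Vacuolar exchangers and anion channels were called in 5 of 6 cases in cop1-4 and 4 of 6 in spaQ. These shares of 83.3% and 66.7% compare with 62.1% and 71.6% of all tested genes. With library totals 5 of 6 were called in spaQ, where SLAH3 was also called lower (-0.41, adjusted p = 0.00193). CLCb, a vacuolar nitrate and proton exchanger, rose by 1.41 in cop1-4 (adjusted p = 3.96e-09) and 3.33 in spaQ (adjusted p = 1.69e-13), and was 3.77-fold higher in spaQ than in cop1-4. Its close relative CLCa, the main vacuolar nitrate exchanger of leaves, fell by 0.22 in cop1-4 and 0.26 in spaQ (adjusted p = 0.0268 and 0.0114). CLCc, another vacuolar exchanger, fell (log2 fold change -1.13 and -1.32), as did the anion channel gene SLAH2 (-1.03 and -1.60).

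Among 8 other NIN-like genes, 2 rose and 1 fell in cop1-4, and 1 rose and 4 fell in spaQ. The shares called, 37.5% and 62.5%, lay below the 62.1% and 71.6% of all tested genes. With library totals 1 rose in each mutant, and 6 fell in cop1-4 and 7 in spaQ. With DESeq2's size factors 2 rose and 3 fell in cop1-4. NLP6, the closest relative of NLP7, rose by 0.59 and 0.62 (adjusted p = 2.04e-05 and 8.61e-06). NLP3 fell, with log2 fold changes of -2.22 and -2.28 (adjusted p = 5.96e-07 and 2.52e-07).

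Other nitrate regulators moved mostly upward, with 10 of 14 higher and 3 lower in cop1-4 and 9 higher and 3 lower in spaQ. The shares called were 92.9% and 85.7%, against 62.1% and 71.6% of all tested genes. With library totals the counts were 9 and 4 in cop1-4 and 6 and 4 in spaQ. BT1 and BT2, BTB and TAZ domain proteins linked to nitrogen use, rose by 3.52 and 1.59 in cop1-4 and 3.41 and 1.56 in spaQ. LBD38, a repressor of nitrogen-responsive genes, rose by 1.46 and 1.92. ANR1, a root MADS-box gene of the lateral root response to nitrate, fell, with a log2 fold change of -3.71 in cop1-4 and -6.16 in spaQ (adjusted p = 2.57e-09 and 8.29e-11), from 9.27 ± 0.897 CPM in Col-0 to 0.132 ± 0.0662 in spaQ.

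No nitrate signalling kinase or calcium sensor gene rose in either mutant, and 5 of 7 fell in each. The share called was 71.4% in each mutant. Of all tested genes, 62.1% were called and 30.3% lower in cop1-4, and 71.6% and 36.1% in spaQ. With library totals, which call more genes lower, 7 of 7 fell. CIPK23, a kinase that phosphorylates NRT1.1, and CBL1, a calcium sensor that works with it, fell, with log2 fold changes of -0.42 and -1.64 in cop1-4 and -1.02 and -1.88 in spaQ. CPK10 and CPK30, kinases that phosphorylate NLP7, had log2 fold changes of -0.33 and -0.52 in cop1-4 and -0.73 and -1.02 in spaQ, all called.

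For the molybdenum cofactor that nitrate reductase needs, 3 of 7 genes rose in cop1-4, 4 rose in spaQ and none fell. The shares called, 42.9% and 57.1%, lay below the 62.1% and 71.6% of all tested genes. With library totals 2 rose and 2 fell in cop1-4 and 2 rose and 3 fell in spaQ. The molybdate transporter gene MOT1 rose 7.19-fold in cop1-4 and 14.8-fold in spaQ (adjusted p = 8.19e-09 and 6.19e-11), from 0.8955 ± 0.277 CPM in Col-0. The other genes of the group moved less. AT2G43760, listed with the synthesis genes, rose by 0.54 in cop1-4 and 0.73 in spaQ (adjusted p = 1.96e-05 and 4.18e-07), and stayed called with library totals at 0.22 and 0.36. Other called synthesis genes rose by less, CNX2 by 0.28 in cop1-4 and CNX1 and CNX7 by 0.33 and 0.29 in spaQ (log2 fold change). These values turned to -0.04, -0.04 and -0.08 with library totals. Of 6 listed genes for the siroheme and reductant of nitrite reductase, 6 fell in cop1-4 and 4 in spaQ (6 with library totals). The shares called were 100% and 66.7%, against 62.1% and 71.6% of all tested genes. Listed were UPM1, FD3, RFNR1, RFNR2, G6PD2 and G6PD3. Other ferredoxin and ferredoxin reductase genes were not examined, so the supply to nitrite reductase as a whole was not tested. UPM1, an enzyme of siroheme synthesis, fell, with log2 fold changes of -0.70 and -0.46, and FD3, a root-type ferredoxin, fell 1.76-fold and 2.14-fold. Between the mutants, 4 of these 6 were higher and 1 lower in spaQ, or 3 and 1 with library totals, where UPM1 was no longer called. Of all tested genes, 24% were higher and 23.5% lower in spaQ than in cop1-4. RFNR1, a root-type ferredoxin reductase, was higher in spaQ than in cop1-4 by 0.66 (adjusted p = 0.000102).

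**Figure D5:**
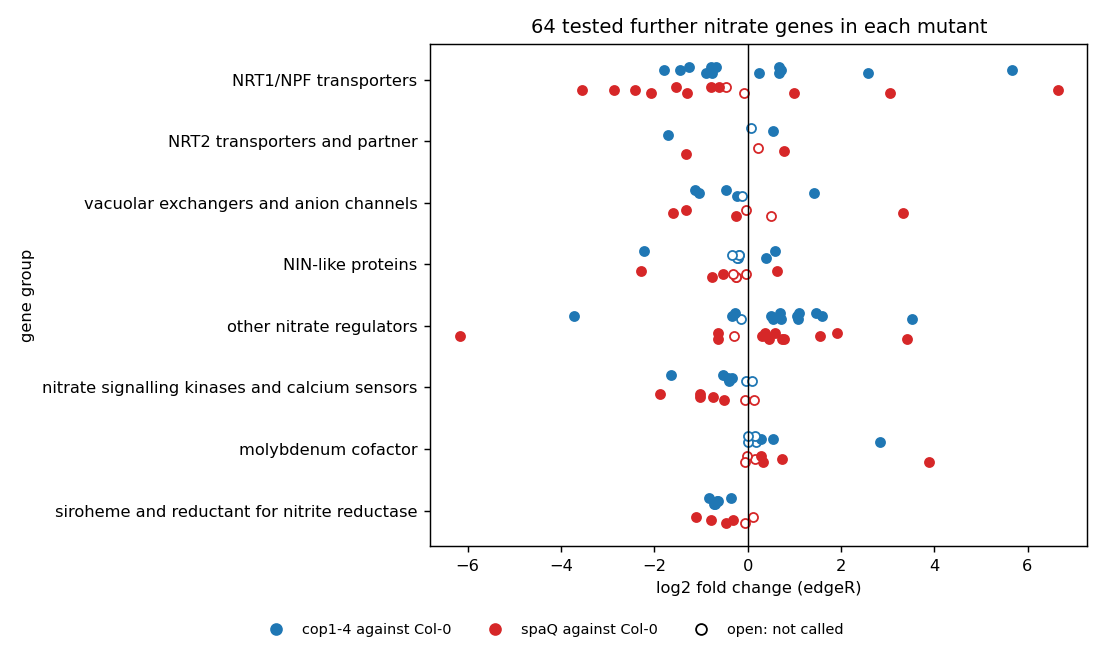
Log2 fold changes (horizontal axis) of the 64 tested further nitrate genes by group (vertical axis) in each mutant against Col-0; filled points are called and open points are not. NPF6.4 (5.67 and 6.64) and ANR1 (-3.71 and -6.16) lie at the 2 ends, the kinases and sensors that are called lie to the left of 0, and the molybdenum cofactor genes that are called lie to the right, in each case with TMM scaling.

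The gene most like each member over the 9 libraries was found by Pearson's r of log2 CPM among 16989 tested genes. For NIA2 it was COL2 (r = 0.9994), a CONSTANS-like B-box gene, and for NIA1 it was GLR3.4 (r = 0.9984), a glutamate receptor-like gene, followed by KEA1 (r = 0.9975). For NRT1.5 it was the receptor-like kinase gene CRK25 (r = 0.999), for NRT1.1 it was MRN1 (r = 0.9989), the marneral synthase gene, and for NRT1.7 it was ECT8 (r = 0.9968). NIR1 was nearest to AT3G25410 (r = 0.9973) and NLP7 to AT2G28450 (r = 0.9973). The scarcer or more scattered genes had looser neighbours, MLO6 for NRT1.8 (r = 0.9802) and TTL for NRT3.1 (r = 0.9311). The 9 libraries fall into 3 genotypes, so such values mostly reflect the 3 genotype means and are given as a description.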

How the data were processed

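RNA was sequenced from 9 seedling libraries. The authors deposited raw read counts per gene (unnormalised), and 2 tables of regulated genes with log2 fold changes and p-values adjusted as FDR. Per the submitters' processing notes, FastQC, Bowtie2, TopHat, HTSeq and DESeq2 were used, with no versions named, and the genome build was TAIR10. Whether counting used strand is not given in the sources used here. In the authors' deposited tables the smallest absolute log2 fold change is 1 and the largest FDR is 0.05. All sample columns were mapped by name, and 0 rows named no gene.

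Counts were tested with edgeR 4.0.16 in R 4.3.3: filterByExpr, TMM, then glmQLFit and glmQLFTest in 1 fit of 9 libraries with genotype as the term (6 residual degrees of freedom, common dispersion 0.008649), with Benjamini-Hochberg adjustment over 20779 genes. The standard error was the log2 fold change divided by the square root of its F. The code was tested on simulated data. Exon lengths and sequences came from RefSeq TAIR10.1. Replicates differed by more than counting noise (chi-square per degree of freedom 3.27 to 20.4), so none was a copy. Alternatives were other scalings, no filter, DESeq2 1.42.0, a replicate block, fits of 2 genotypes and leaving out each library.

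The genes and lists were chosen with earlier results of these data known. Every member is named in every comparison, and of each further group up to 4 genes with the lowest adjusted p in a comparison; likeness was ranked among genes whose log2 CPM averaged at least 1. Of 69 further genes, 12 lacked the listed symbol in the reference, and those are named by locus or by the symbol given there.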

Additional observations from a re-analysis of the deposited data

How the results depend on the processing

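Of 405 values of the 9 tested genes under 15 alternatives, 391 kept their direction and their side of the threshold. The log2 fold change of NRT3.1 turned sign in 3 cases: 0.01 for spaQ against Col-0 without spaQ replicate 1, and -0.02 and -0.19 for spaQ against cop1-4 without cop1-4 replicate 1 and without spaQ replicate 2; leaving out each library in turn it ranged over -0.53 to 0.01 and -0.19 to 0.34. Library totals in place of TMM moved the median gene to -0.306 in cop1-4 and -0.39 in spaQ against Col-0, and the share of called genes that were higher from 51.2% to 28.5% and from 49.6% to 29.9%. With spaQ against cop1-4 they moved it to -0.069 and that share from 50.5% to 42.5%. The calls of NRT1.7 in cop1-4 and NLP7 in spaQ ended there, and NRT3.1 became called. Leaving out each library in turn gave 8, 8 to 9 and 5 to 7 of the genes called in the 3 comparisons and 44 to 50, 44 to 48 and 31 to 39 of the further nitrate genes. The differences in NIA2 share ranged over 9.34 to 11.9, 15.5 to 18 and 5.47 to 6.81 points. Depth limits NRT2.1 and, in spaQ, NRT1.8.

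With the replicate number as a block, 8, 8 and 6 of the genes were called, 50, 47 and 35 of the further nitrate genes and 12727, 14731 and 9585 of all genes. Deviations of libraries with the same number correlated between -0.149 and 0.163, and 4 of 9 libraries were closest to their own number. No pairing by number was thus detected, but 3 libraries per genotype are too few to exclude it.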
